A study of Homo sapiens with 8 samples.

Results

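A synthetic miR-629-3p mimic was compared with a negative control RNA (NC) in SAS cells, an established line from a human squamous cell carcinoma of the tongue. The comparison rests on 4 of the 8 arrays in the series, 2 that received RNA from cells given miR-629-3p and 2 from cells given NC. The other 4 arrays held RNA from cells given miR-210-3p or miR-874-3p. Every group received 25 nM of its RNA by lipid transfection, so the control cells had also been transfected. By the study's methods the mimics and NC came from different suppliers, so supplier and group cannot be told apart in the comparison with NC. The labels give 48 h from transfection to extraction. The study's methods differ from the labels here, since they give an earlier extraction, another RNA kit and a SAS line that carries a GFP vector. A probe was kept if its signal was well above background on all 4 arrays, which held for 22737 of 58201 gene probes. With the brightest probe for each gene name and a value on all 8 arrays, 17650 of 43317 gene names were tested.

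A miRNA guides an Argonaute complex to mRNAs that pair with its seed, the bases near its 5′ end, and lowers the stability or translation of those mRNAs. A transfected mimic raises 1 such guide far above its usual level. The RNAs that change may include transcripts that pair with the guide and transcripts that respond to them. Which of the changes here are of either kind was not tested. The study asked whether miR-629-3p alters the sensitivity of these cells to cisplatin.

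The mature sequences of the 3 mimicked miRNAs are shown because their seeds, given in capitals as bases 2 to 8, differ from one another. They are RefSeq entries on GRCh38.p14. The miR-629-3p sequence lies at chr15:70079387-70079408 on the minus strand.
miR-629-3p: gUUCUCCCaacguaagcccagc
miR-210-3p: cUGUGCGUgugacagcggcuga
miR-874-3p: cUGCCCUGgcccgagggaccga
The DNA letters that pair with the miR-629-3p seed are GGGAGAA. The array reads each gene through a probe of 60 bases, so only sites that fall inside a probe could be seen. Of the 190 genes that fell by at least 2-fold, 2 had a probe with this site, and both are shown with the site in capitals, on hg19.
NDC1 (chr1:54233483-54233507, minus strand): tactttaatGGGAGAAatcatggaa
INPP5A (chr10:134596480-134596504, plus strand): taatatcatGGGAGAAatagaaata
Both lie in protein-coding genes, and exon and UTR annotation of that build was not used here. NDC1 encodes a membrane protein of the nuclear pore. Its log2 signal was 2.88 and 2.92 with miR-629-3p against 4.10 and 4.12 in NC, a decrease of 1.21 (SE 0.14, adjusted p = 0.00372). INPP5A encodes a phosphatase that ends the inositol trisphosphate calcium signal. It had 1.61 and 1.42 against 2.55 and 2.70 and fell by 1.11, and the call was lost without either miR-629-3p array or without NC replicate 2. Its mean with miR-210-3p was 1.62, and another INPP5A probe gave a log2 fold change of -0.62. Among all genes tested, 0.56% held the site in their probe, compared with 1.05% of the genes at least 2-fold lower (exact binomial 95% interval 0.128% to 3.75%, counting error only) and 0.29% of those at least 2-fold higher. The 98 genes with the site had a median log2 fold change of -0.07, and 13 of them fell (13.27%) and 8 rose (8.16%). The median of the 17552 genes without it was 0.04, and 8.63% of them fell and 14.0% rose. These shares are descriptions of probe windows.

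The slide held all 8 arrays and was scanned once. The miR-629-3p arrays shared slide row 1 with miR-210-3p, and the NC arrays shared row 2 with miR-874-3p, so that row and group cannot be told apart in the comparison with NC. The difference of miR-629-3p from the mean of the other 2 mimics is also given beside the genes that matter most. Of these mimics only miR-210-3p shares row 1, so that difference still holds part of any row effect. The miR-629-3p arrays had 29007 and 28140 probes over background, the NC arrays had 24979 and 24559, and no spot was saturated. Replicates differed by 2-fold or more for 91 of the tested genes with miR-629-3p and for 237 with NC. Nothing in the labels says whether replicates came from separate cultures, so the p-values measure only the spread between these samples. All 10 markers of squamous epithelium, keratins KRT5 and KRT14 and the transcription factor TP63 among them, were well above background on all 4 arrays. This was true of 1 of 6 fibroblast markers, 2 of 5 leukocyte markers, 2 of 4 endothelial markers and 1 of 3 melanocyte markers. The markers also moved, since 5 of the 10 epithelial markers fell and 1 rose with miR-629-3p, with a median of -0.53, and the fibroblast marker PDGFRB and the endothelial marker VWF had log2 fold changes of 0.52 and 0.94. Their part in the results was not tested.

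Values below are log2 signals relative to each array's 75th percentile, and a log2 fold change is the mean of the 2 miR-629-3p arrays minus that of the 2 NC arrays. Of the 17650 genes tested with limma at an adjusted p under 0.05, 2465 rose (14% of all) and 1527 fell (8.65%). Changes of at least 2-fold were fewer, with 339 genes higher (1.92%) and 190 lower (1.08%). The median log2 fold change of all genes was 0.04. Higher genes made up 61.7% of those called, but 41.8% when each array was centred on its median, so the balance of small changes depends on the centring. Leaving out any of the 4 arrays lowered both counts at any fold. Such a fit leaves 1 array in a group and has less power. Smaller counts and lost calls in these fits, here and throughout, cannot tell that loss of power from the weight of a single array.

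The kind of RNA differed between the 2 directions. Of the genes at least 2-fold higher, 218 matched protein-coding genes in RefSeq and none matched a snoRNA. Of the 190 that were at least 2-fold lower, 89 were protein-coding and 52 were small nucleolar RNAs (snoRNAs). Of 193 snoRNAs tested, 106 fell and 1 rose, compared with 1116 and 1893 of 12192 protein-coding genes. These families were chosen after their values had been seen, and every tested member of each is counted.

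The snoRNAs of the H/ACA class, which guide the conversion of uridine to pseudouridine in ribosomal RNA, accounted for most of this. Of 91 tested, 76 fell (83.5%), 51 of them by at least 2-fold, and none rose. The largest decrease was that of SNORA1, whose log2 signal was 1.70 and 1.72 with miR-629-3p against 3.82 and 4.01 in NC. It was 4.64 and 4.51 under miR-210-3p, and 4.19 and 3.09 under miR-874-3p, so the miR-629-3p arrays lay below the other 6. SNORA1 fell by 2.20 (SE 0.32, adjusted p = 0.00714). SNORA48 had 4.04 and 4.15 against 5.83 and 6.08 and fell by 1.86. SNORA63 had 3.26 and 3.34 against 4.95 and 5.15 and fell by 1.75. The exceptions were few. SNORA78 had a log2 fold change of 0.20 (adjusted p = 0.27) and SNORA71A one of 0.01.

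The small Cajal body RNAs (scaRNAs) guide the modification of spliceosomal RNAs. Of 21 tested, 16 fell, 12 of them by at least 2-fold, with a median log2 fold change of -1.30. The median scaRNA signal was 1.17 and 1.12 with miR-629-3p against 1.80 and 1.61 in NC. Another mimic also departed from NC, since miR-210-3p gave 2.69 and 2.75, higher than NC, while miR-874-3p gave 1.68 and 1.89. SCARNA1 had -1.01 and -0.86 with miR-629-3p against 0.91 and 1.18 in NC and fell by 1.99. SCARNA20 had 3.21 and 3.16 against 4.65 and 4.71, a decrease of 1.50 (SE 0.08, adjusted p = 0.000662). Of the 4 vault RNAs tested, 3 fell, but leaving out any 1 array left 1. The telomerase RNA, TERC, an H/ACA RNA by structure, had 3.30 and 3.45 against 4.19 and 4.09 and fell by 0.77 (adjusted p = 0.00433). The C/D snoRNAs, which guide ribose methylation, changed less. Of 102 tested, 30 fell, 1 rose and 1 of those that fell did so by at least 2-fold, with a median of -0.33 compared with -1.098 for the H/ACA class. Leaving out miR-629-3p replicate 1 or 2 left 6 or 11 that fell, and leaving out NC replicate 1 or 2 left 17 or 14. The difference between the classes was not tested.

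None of the 18 SNHG genes tested fell, 2 rose, and their median was 0.07. The median signal of the H/ACA snoRNAs was 1.16 and 1.20 under miR-629-3p, and NC gave 2.33 and 2.44. It was 2.51 and 2.52 under miR-210-3p, while miR-874-3p gave 2.28 and 2.03. The miR-210-3p arrays lay in the same slide row as the miR-629-3p arrays, and the part of the row was not tested. Without miR-629-3p replicate 1 or 2 there were 36 or 50 H/ACA snoRNAs that fell, and leaving out NC replicate 1 or 2 left 64 or 44, with a median between -1.17 and -1.04. The scaRNAs that fell numbered 14 to 15 in these fits. The labels and the study's methods name RNA kits that differ in the short RNAs they keep, and whether recovery of short RNA differed between samples was not tested.

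**Figure D1:**
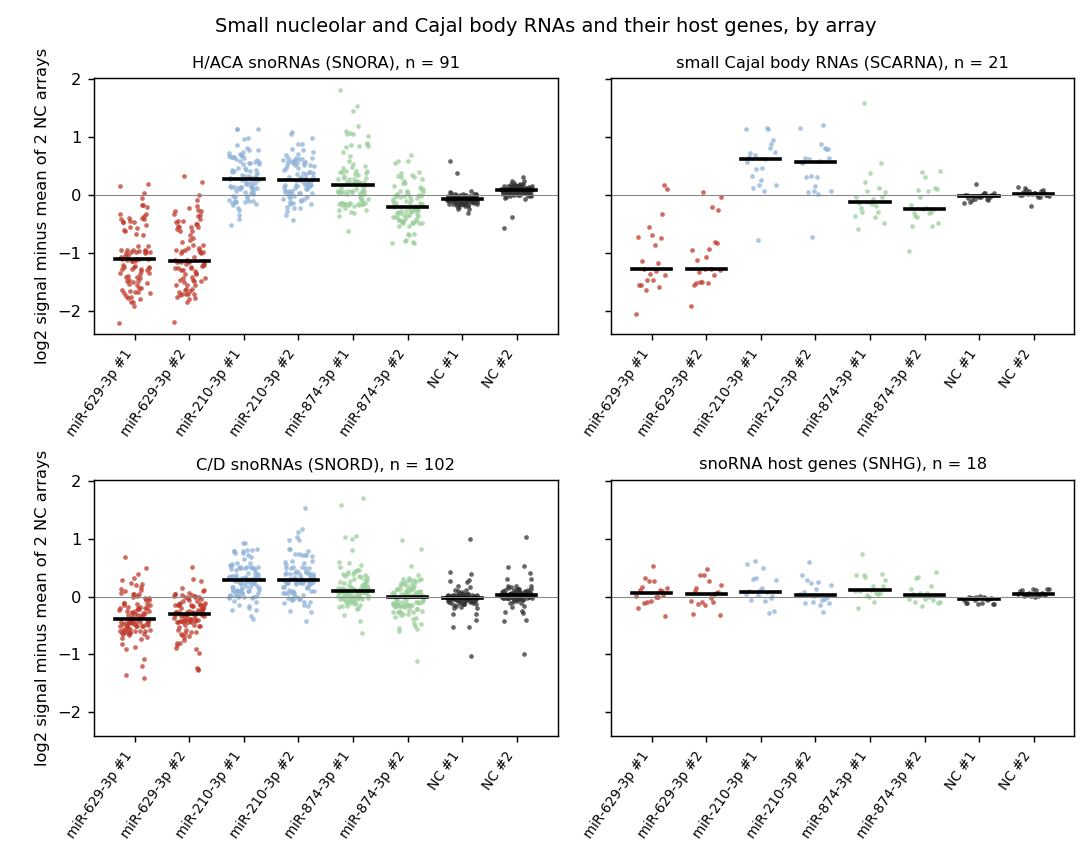
Log2 signal of each RNA minus its mean on the 2 NC arrays (vertical axis) on each of the 8 arrays (horizontal axis) for H/ACA snoRNAs, scaRNAs, C/D snoRNAs and snoRNA host genes. Points are RNAs and bars are medians over the RNAs of an array. The H/ACA snoRNAs and scaRNAs lie lowest on both miR-629-3p arrays, while the host genes named SNHG lie near 0 on all 8. These host genes are a family by name and were not matched to the RNAs plotted.

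The size of a fold depended on how background was treated. Under normexp background correction, 35 of 88 named genes had a log2 fold change smaller by over 1.5 times, and none had one larger by as much. Among protein-coding genes the largest increase was that of MMP3. MMP3, the matrix-degrading enzyme stromelysin 1, had 3.29 and 3.09 with miR-629-3p against 0.50 and -0.52 in NC. Its log2 fold change was 3.20 (SE 0.42, adjusted p = 0.00568), and it lay between -0.73 and 0.36 on the 4 arrays of the other mimics. RELN, a secreted glycoprotein best known from neuronal migration, had 1.42 and 1.38 against -1.40 and -2.12 and rose by 3.16, or by 1.64 with normexp. Another RELN probe gave 2.84. IL11, a cytokine of the interleukin 6 family, had 2.25 and 1.96 against -0.42 and -0.39 and rose by 2.51. With miR-210-3p it had 2.65 and 2.35. FAM24B rose by 3.04 and C8orf46, now named VXN, by 2.74. ADAMTS6, a secreted metalloproteinase, rose by 2.24, from -0.94 and -0.74 to 1.38 and 1.42.

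ITGB8, an integrin subunit that activates latent TGF-beta, had 3.23 and 3.16 against 1.13 and 0.50 and rose by 2.38. SLC5A3, a myo-inositol transporter, had 6.07 and 5.77 against 3.88 and 3.40 and rose by 2.28. SLC7A7, an amino acid transporter subunit, had 1.47 and 1.24 against -0.80 and -0.98 and rose by 2.24. GNE, the first enzyme of sialic acid synthesis, had 5.85 and 5.63 against 3.90 and 2.77 and rose by 2.40. ANK1, an ankyrin, rose by 2.50 (SE 0.70, adjusted p = 0.0476). The calls for SLC7A7 and ANK1 were lost whichever of the 4 arrays was left out, and those for SLC5A3 and GNE without either miR-629-3p array or without NC replicate 2. The ITGB8 call was lost without miR-629-3p replicate 1 alone. PSG1, 1 of a family of pregnancy-specific glycoproteins with near-identical copies that a probe may not tell apart, rose by 2.27.

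The largest decrease was that of ANGPTL4, a secreted inhibitor of lipoprotein lipase that low oxygen induces. Its log2 signal was -1.15 and -1.21 with miR-629-3p against 2.58 and 2.41 in NC, while miR-210-3p gave 3.20 and 3.01, and miR-874-3p 2.37 and 1.99. The decrease was 3.67 (SE 0.14, adjusted p = 0.000342), or 12.7-fold, and it was -2.405 on the log2 scale with normexp. C10orf10, now DEPP1, had 0.70 and 0.59 against 3.03 and 3.17 and fell by 2.46. IGFBP3, which binds insulin-like growth factors outside cells, had 1.62 and 1.45 against 3.67 and 4.09 and fell by 2.35. UBD, a ubiquitin-like modifier that inflammatory cytokines induce, fell by 2.28, with a value of -0.91 under normexp. SLCO2A1, the prostaglandin transporter, had -0.46 and -0.65 against 0.99 and 1.50 and fell by 1.80. SAPCD1 fell by 1.97, DHRS2, a dehydrogenase, by 1.95, and SPAG4 by 1.63. STRIP2 fell by 1.80, but its NC arrays stood at 1.43 and 0.00. The DHRS2 call was lost whichever array was left out, the SAPCD1 call without miR-629-3p replicate 2 or NC replicate 2, and the STRIP2 call without either miR-629-3p array.

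ATXN1, which encodes ataxin 1, fell by 2.39, yet its NC arrays stood at -0.79 and 1.01 and a second probe gave 0.30. The call was lost without either miR-629-3p array. Against the other mimics its difference was 0.20 (adjusted p = 0.771). STRIP2 and DHRS2 also did not pass against the other mimics (differences of -0.59 and -0.83). Over all genes, the contrast with the other mimics called 16.2% higher and 12.9% lower. Its differences were -3.82 for ANGPTL4, 3.21 for MMP3 and 0.66 for IL11.

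**Figure D2:**
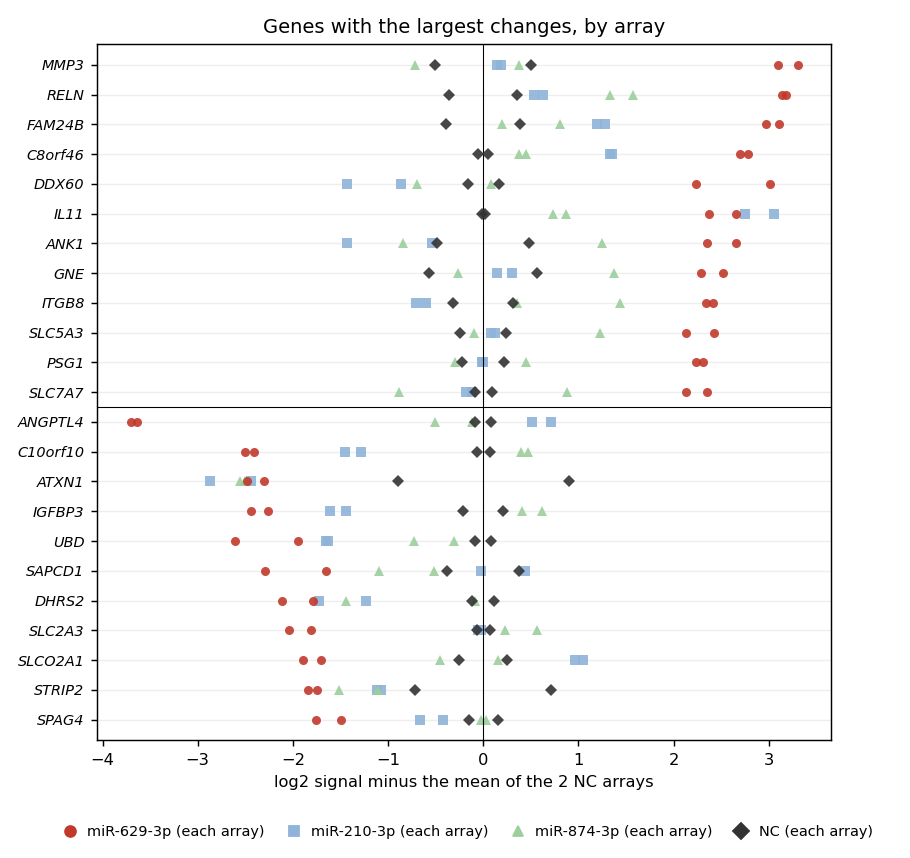
Log2 signal minus the mean of the 2 NC arrays (horizontal axis) for named protein-coding genes with the largest increases (top) and decreases (bottom), with 1 point for each of the 8 arrays. By the rule that chose these genes, the miR-629-3p points lie apart from both NC points in each. Points of the other mimics lie beside the miR-629-3p points in a few genes, IL11 and ATXN1 among them.

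Genes were then read in groups by function, each to be read against the shares of all genes, 14% higher and 8.65% lower. Cells answer low oxygen through the hypoxia-inducible factors, which raise glucose uptake, glycolysis and several secreted factors. Of 42 genes of the hypoxia response and glycolysis, 39 were tested, and 25 fell (64.1%), 10 of them by at least 2-fold, while 1 rose. The group had a median of -0.61 on the log2 scale, and 6 of the 39 had a positive value. Leaving out any 1 of the 4 arrays left 19 to 22 that fell. Against the other mimics 27 fell and 1 rose.

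SLC2A3, the glucose transporter GLUT3, had -2.81 and -2.57 with miR-629-3p against -0.84 and -0.70 in NC and fell by 1.92 (SE 0.14, adjusted p = 0.00135). With normexp the value was -0.49. Its close paralog SLC2A14 may share the probe. SLC2A1, the transporter GLUT1, had a log2 fold change of 0.07 (adjusted p = 0.614). Hexokinase 2 (HK2) fell by 0.74, PGK1 by 0.96, TPI1 by 0.72 and LDHA, which makes lactate, by 0.73. LDHA had 7.29 and 7.30 against 7.97 and 8.08, and the other mimics had 7.89 to 8.02. PDK1, a kinase that keeps pyruvate out of mitochondria, had 1.53 and 1.46 against 2.45 and 2.79 and fell by 1.13. ENO1, GAPDH and PKM had -0.20, -0.32 and -0.30 and did not pass.

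NDRG1 had 6.08 and 5.81 against 7.47 and 7.37 and fell by 1.47, and it had 6.43 and 6.43 with miR-210-3p. BNIP3, which acts in the removal of mitochondria, had 5.91 and 5.83 against 7.17 and 7.17 and fell by 1.30 (SE 0.07, adjusted p = 0.000662). The histone demethylase KDM3A fell by 1.37, and DDIT4, an inhibitor of mTOR, by 1.33. Adrenomedullin (ADM) fell by 0.86, from 5.75 and 5.87 to 4.91 and 4.99, and had 4.89 and 4.91 with miR-210-3p. VEGFA was the exception, with 4.36 and 4.25 against 3.78 and 3.84, an increase of 0.49 (adjusted p = 0.00861). Nuclear-encoded subunits of oxidative phosphorylation were mostly not past the test. Of 55 tested, 6 fell and none rose, and without any 1 array 1 or 2 fell.

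**Figure D3:**
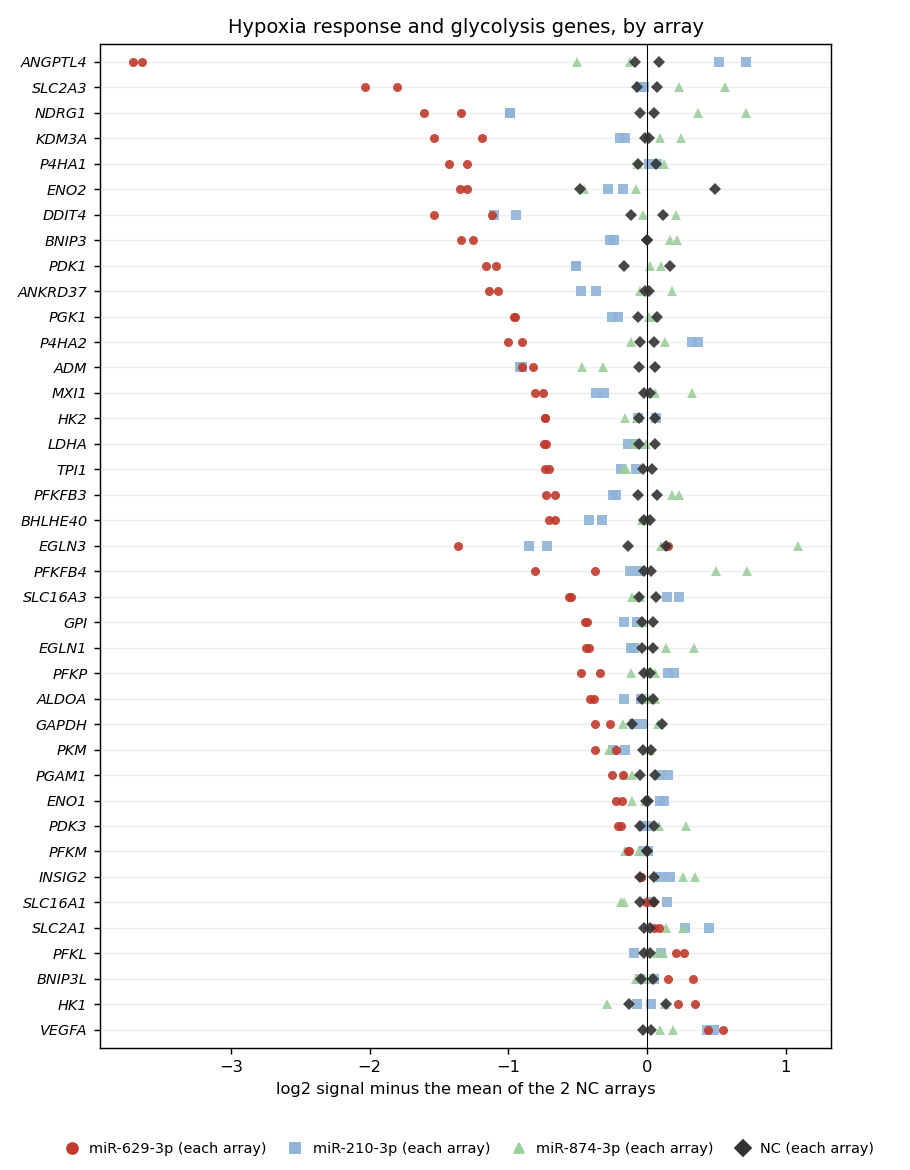
Log2 signal minus the mean of the 2 NC arrays (horizontal axis) for all 39 tested genes of the hypoxia response and glycolysis, ordered by log2 fold change, with 1 point for each of the 8 arrays. In 25 genes the miR-629-3p points lie to the left of the NC points and pass the test, and VEGFA, at the bottom, lies to the right.

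Of 34 tested collagen genes and enzymes that process collagen, 11 fell, 1 rose and 22 did not pass, with a median of -0.13. COL4A1, a chain of basement membrane collagen, had 0.41 and 0.32 against 1.69 and 1.83 and fell by 1.40. COL5A1 fell by 1.14, COL13A1 by 1.03 and COL4A2 by 0.75. The prolyl hydroxylase subunits P4HA1 and P4HA2, which are in the hypoxia group too, fell by 1.36 and 0.95, and lysyl oxidase (LOX), which crosslinks collagen, by 1.24. COL12A1 had 3.64 and 3.47 against 2.37 and 1.997 and rose by 1.37, and its other probe gave 1.40. That call was lost without either miR-629-3p array or without NC replicate 2. Leaving out 1 array left 7 to 10 that fell.

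MHC class I molecules show peptides from inside the cell to T cells. Of 21 tested genes of this presentation, 12 fell, 9 did not pass and none rose, with a median of -0.34. Against the other mimics 7 fell and 2 rose. PSMB9, a subunit of the immunoproteasome, had 4.17 and 4.20 against 5.10 and 5.20 and fell by 0.97. HLA-F had 4.10 and 4.10 against 4.87 and 4.84 and fell by 0.76, and a second probe gave -0.74. Beta-2-microglobulin (B2M) fell by 0.31 and TAP1, of the peptide transporter, by 0.40. B2M had 6.25 and 6.23 with miR-629-3p and 6.16 and 6.23 with miR-210-3p. The HLA genes are close paralogs, and a probe may read more than 1. Leaving out miR-629-3p replicate 1 or 2 left 3 or 5 that fell, and leaving out NC replicate 1 or 2 left 10 or 5.

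Lack of amino acids and unfolded protein in the endoplasmic reticulum both activate the kinase pathways that raise translation of ATF4, which in turn induces genes of amino acid uptake and of cell death. Of 43 genes of this response tested, 16 rose, 6 of them by at least 2-fold, and 3 fell. Against the other mimics 15 rose and 4 fell. CHAC1, which degrades glutathione, had 4.33 and 4.22 with miR-629-3p against 1.86 and 2.43 in NC and rose by 2.13 (SE 0.21, adjusted p = 0.00253). SLC7A11, the cystine transporter, had 5.21 and 5.14 against 3.09 and 3.13 and rose by 2.06, with 2.76 to 3.43 for the other mimics. NUPR1 rose by 1.81, and had -1.56 and -1.09 with miR-210-3p, below the NC values of 0.83 and 0.21. DDIT3, the transcription factor CHOP, had 2.29 and 2.25 against 0.71 and 0.78 and rose by 1.52 (SE 0.07, adjusted p = 0.000369). ATF3 rose by 1.13 and SESN2 by 1.36, the latter call being lost whichever array was left out.

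Some chaperones and a synthetic enzyme of the same group were not called higher. HSPA5, the chaperone BiP, had a log2 fold change of 0.17 (adjusted p = 0.478) and asparagine synthetase (ASNS) one of 0.35 (adjusted p = 0.318). The chaperones HSP90B1 and calreticulin (CALR) fell by 0.43 and 0.41. ATF4 itself had 0.28 (adjusted p = 0.0855). Without miR-629-3p replicate 1 or 2 there were 6 genes that rose in each case, and without NC replicate 1 or 2 there were 7 or 10.

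Inflammatory cytokines and NF-kappaB targets showed both directions. Of 31 tested, 14 rose and 5 fell. Against the other mimics 14 rose and 5 fell. IL24 had 5.02 and 5.20 against 3.30 and 3.38 and rose by 1.77, and its other probe gave 1.32. IL1B had 7.42 and 7.35 against 6.20 and 5.997 and rose by 1.29 (SE 0.09, adjusted p = 0.00138), and IL1A rose by 1.11. The interleukin 1 receptor antagonist IL1RN rose by 1.04. TNFAIP3, a brake on NF-kappaB, had 1.66 and 1.60 against 0.44 and 0.47 and rose by 1.17. IL6 rose by 0.66 and CXCL8 by 0.95. Lymphotoxin beta (LTB), TNFAIP2, SOD2 and ICAM1 fell by 1.02, 0.98, 0.58 and 0.38. Leaving out miR-629-3p replicate 1 or 2 left 7 or 8 that rose, and without NC replicate 1 or 2 there were 9 or 8.

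**Figure D4:**
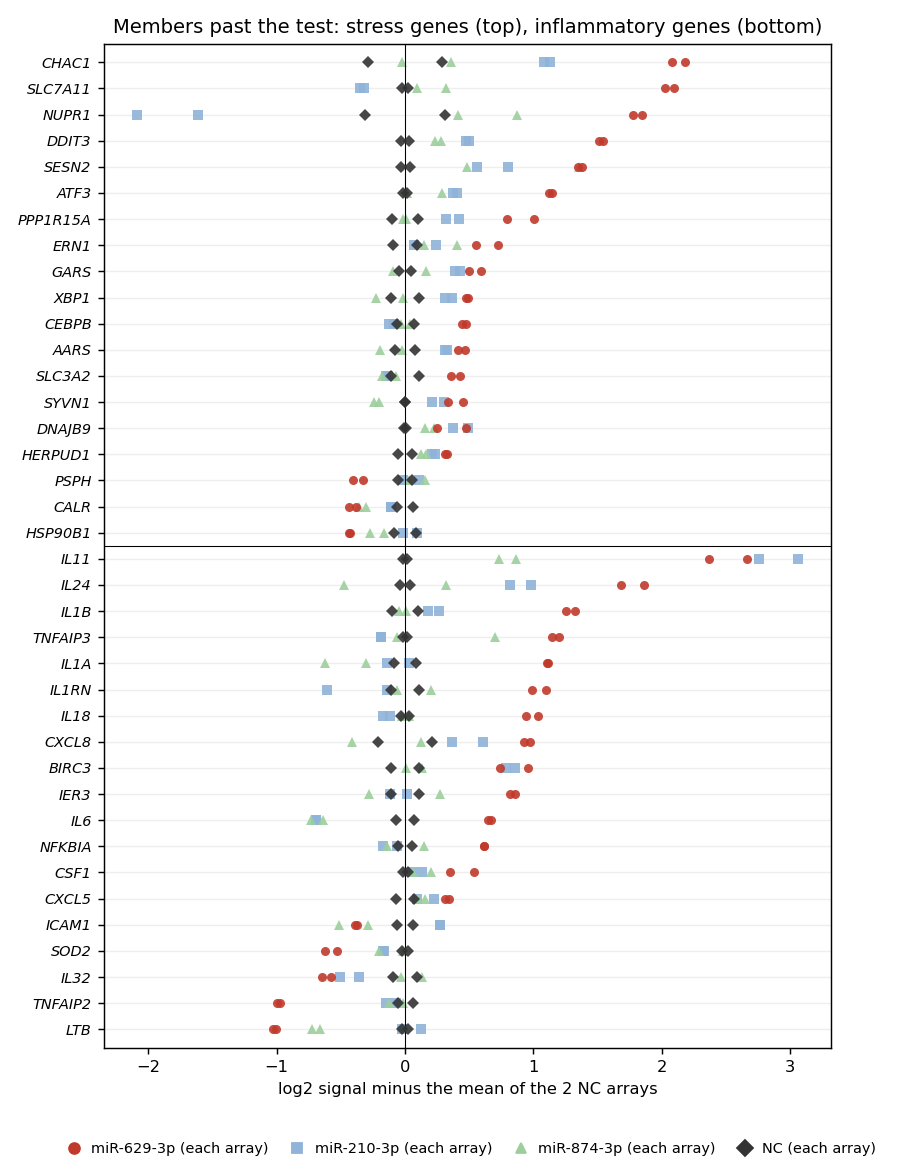
Log2 signal minus the mean of the 2 NC arrays (horizontal axis) for the 19 members past the test in the stress group (top) and the 19 in the inflammatory group (bottom), with 1 point for each of the 8 arrays. The miR-629-3p points lie to the right of the NC points in 16 stress genes and 14 inflammatory genes, and the miR-210-3p points of IL11 lie farther right still.

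Of 41 tested interferon-stimulated genes, 10 rose and 6 fell. Against the other mimics 26 rose and 4 fell, so the count depended on the group compared with. DDX60, a helicase that acts with RNA sensors, had 1.97 and 2.74 against -0.11 and -0.44 and rose by 2.63 (SE 0.36, adjusted p = 0.00626). OASL rose by 1.69, a call lost without either miR-629-3p array or without NC replicate 2, HERC5 by 1.06, and IFIT1, which binds viral RNA, by 0.95. IFI44 had 1.76 and 1.50 against 0.78 and 0.59, and lay at -0.93 and -0.84 with miR-210-3p. MX1 and IFIT2 had values of 0.01 and 0.02. IFITM1, which blocks viral entry, had 1.13 and 1.12 against 2.44 and 2.56 and fell by 1.38, and the viral tether BST2 fell by 1.09. With miR-210-3p IFITM1 had 0.98 and 1.13. Without miR-629-3p replicate 1 or 2 there were 3 or 5 that rose, and without NC replicate 1 or 2 there were 7 or 4.

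Of 32 tested genes of the EGF family and of feedback on MAPK signalling, 13 rose, 19 did not pass and none fell, with a median of 0.33. Without either NC array 1 fell, with no detection filter 3 fell, and against the other mimics 8 rose and 3 fell. EGR1, an immediate early transcription factor, had 5.87 and 5.62 against 4.43 and 4.77 and rose by 1.15, and with miR-210-3p it had 5.48 and 5.59. SPRY2, an inhibitor of receptor tyrosine kinase signalling, had 2.43 and 2.48 against 1.45 and 1.36 and rose by 1.06 (SE 0.09, adjusted p = 0.00206). The phosphatases DUSP10, DUSP4 and DUSP6 rose by 0.85, 0.68 and 0.42. EGFR rose by 0.32. DUSP7 had a value of -1.33 that did not pass (adjusted p = 0.0822), since its NC arrays stood at -2.37 and -0.77. Leaving out miR-629-3p replicate 1 or 2 left 6 that rose in each case, and without NC replicate 1 or 2 there were 9 or 5.

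Ligands of endothelial and mesenchymal receptors changed in both directions. Of 24 tested genes of FGF, VEGF, PDGF and angiopoietin signalling, 8 rose and 3 fell. ANGPT2, which acts on the receptor TIE2, had 0.15 and 0.03 against -1.87 and -2.11 and rose by 2.08 (SE 0.10, adjusted p = 0.000524). FGF2 had 1.09 and 0.89 against -0.78 and -1.36 and rose by 2.06. VEGFC, the ligand of lymphatic endothelium, had 6.71 and 6.65 against 5.42 and 5.17 and rose by 1.38. Placental growth factor (PGF) fell by 1.22, from 1.20 and 1.27 to 0.01 and 0.03, and FGFR3 fell by 1.01. Without miR-629-3p replicate 1 or 2 there were 3 or 5 that rose, and without NC replicate 1 or 2 there were 7 or 5.

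Proteinases of the matrix and the plasminogen system were higher in 9 of 28 genes and lower in 1. Beside MMP3 and ADAMTS6, MMP1, an interstitial collagenase, had 7.21 and 7.07 against 5.96 and 5.39 and rose by 1.46. The inhibitor TIMP4 rose by 1.22. MMP2 and MMP9 had values of 0.01 and 0.13 and did not pass. Urokinase (PLAU) rose by 0.49 while its receptor PLAUR fell by 0.88. Without any 1 array, 5 or 6 genes of the group were higher.

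Targets of p53 and of the YAP and TEAD factors were higher in 10 of 33 and in 9 of 26, and lower in 2 and 3. GADD45A, a stress sensor found in both groups, had 4.49 and 4.48 against 3.04 and 3.24 and rose by 1.35. MDM2, the ubiquitin ligase of p53, had 2.46 and 2.37 against 1.52 and 1.42 and rose by 0.94. CDKN1A, which arrests the cell cycle, rose by 0.83, and PMAIP1, which promotes apoptosis, by 1.00. FDXR and PERP, also p53 targets, fell by 0.68 and 0.69. CTGF rose by 1.27, whereas CYR61, the other classic YAP target, had a value of 0.02. Leaving out 1 array left 4 or 5 higher p53 targets and 5 to 7 higher YAP targets.

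Of 43 genes of DNA replication 11 fell, 1 rose and 31 did not pass, and of 47 genes of mitosis 10 fell, 37 did not pass and none rose. The median was -0.21 in both groups. The centromere protein CENPA fell by 0.67 and cyclin A2 (CCNA2) by 0.60, whereas E2F2 rose by 0.80. Of 63 histone cluster genes, 22 fell and 3 rose, with a median of -0.29. Mitotic genes that fell numbered 24 with median centring and 21 with normexp background correction. These counts rested on all 4 arrays. Without miR-629-3p replicate 1 or 2, 0 or 4 replication genes, 2 or 3 mitotic genes and 1 or 5 histone genes fell, and without NC replicate 1 or 2, 3 and 3, 7 and 3, and 12 and 3. Of 74 ribosomal protein genes 1 rose and none fell. It was RPL27A, whose probe was dim, with -0.30 and -0.18 against -1.67 and -1.73. It rose by 1.46, or by 0.63 with normexp.

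Keratins are the filament proteins of epithelial cells. KRT19 had 7.59 and 7.67 against 8.60 and 8.66 and fell by 1.00, a call lost without miR-629-3p replicate 1, and KRT15 and KRT14 fell by 0.73 and 0.62. KRT5 had a value of 0.02. Of 16 keratins tested, 6 fell and 3 rose. Among genes of cornification, ABCA12, a lipid transporter, rose by 2.06 (0.74 with normexp), a call lost without miR-629-3p replicate 1, and the transcription factors ZNF750, GRHL3 and KLF4 rose by 1.42, 1.36 and 1.30. The kallikrein KLK13 fell by 1.57, from -1.60 and -0.95 to -2.83 and -2.85, and had a value of -0.45 with normexp. Of the 31 tested in this group, 6 rose and 3 fell. Without miR-629-3p replicate 1, none of these keratins fell and none of the cornification genes rose, without replicate 2 there were 2 of each, and without NC replicate 1 or 2 there were 5 or 2 of each.

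Of the tight junction genes, CLDN1 had 6.99 and 6.96 against 5.93 and 5.61 and rose by 1.20, and CLDN4 rose by 0.85. The CLDN1 call was lost whichever array was left out. Of 38 junction genes 10 rose and 6 fell, and without any 1 array 3 to 8 rose and 0 to 2 fell. Among regulators and markers of epithelial to mesenchymal transition, 5 of 19 rose and 5 fell, and without any 1 array 1 to 4 rose and 2 or 3 fell. Vimentin (VIM), a mesenchymal filament, had 4.11 and 4.07 against 4.78 and 5.06 and fell by 0.83, and E-cadherin (CDH1) fell by 0.43. S100A4 had 3.99 and 3.92 against 2.32 and 1.52 and rose by 2.03. TWIST1, TWIST2 and SNAI2 rose by 0.46, 0.41 and 0.47. The CDH1 and TWIST2 calls were lost whichever array was left out, the S100A4 call without either miR-629-3p array or NC replicate 2, and the TWIST1 call without either miR-629-3p array.

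Of 20 genes of platinum transport and drug efflux, 5 rose and 2 fell, and without any 1 array 2 or 3 rose and 0 or 1 fell. LRRC8A, a subunit of the volume-regulated anion channel that carries cisplatin, had 6.71 and 6.72 against 5.74 and 5.66 and rose by 1.02. The copper transporter SLC31A1 rose by 0.52. The efflux pump ABCG2 rose by 1.00, or by 0.25 with normexp. Of 51 genes that repair platinum adducts, 6 rose and 6 fell, but without any 1 array 0 to 2 rose and 0 to 3 fell. ERCC4, a nuclease subunit, rose by 0.68 (adjusted p = 0.0317), but its call was lost in 8 of 17 alternatives and its value was 0.19 with normexp. BRCA1, which acts in recombination, fell by 0.36. In the glutathione group, GPX2 had 0.53 and 0.46 against -1.27 and -1.76 and rose by 2.01, or by 0.91 with normexp. The metallothionein MT1X fell by 1.01. Among apoptosis regulators, CASP10 rose by 1.57 with the brightest probe, but its other probes gave -0.56 and -0.24, and the call was lost without either miR-629-3p array or without NC replicate 2.

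Cholesterol synthesis and uptake had 6 of 27 genes higher and none lower. INSIG1, which holds the sterol sensor in the endoplasmic reticulum, had 4.82 and 4.85 against 3.93 and 3.77 and rose by 0.98, and MSMO1 rose by 0.70. Without any 1 array 1 to 3 rose, with median centring 2 and with normexp 11. The MSMO1 call was lost without either miR-629-3p array or without NC replicate 2. The phosphatases LPIN1 and LPIN2, which make diacylglycerol, rose by 0.85 and 0.77, though the other LPIN1 probe gave 0.20.

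**Figure D5:**
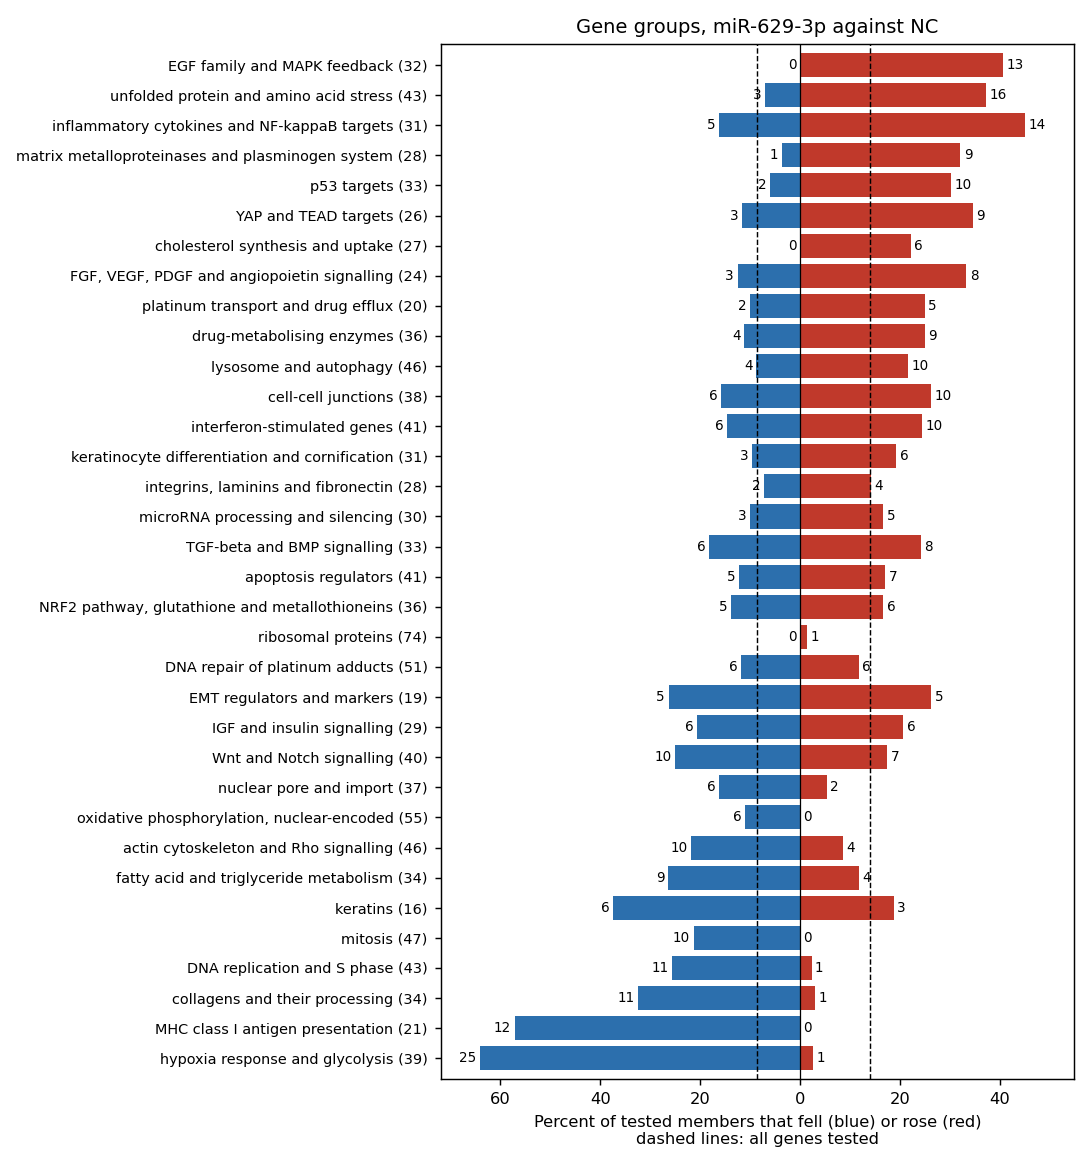
Share of the tested members of each gene group that rose (red, right) or fell (blue, left) at an adjusted p under 0.05, in percent (horizontal axis), with the number of genes at the end of each bar and the number tested after each name. The dashed lines mark the shares among all genes tested, 14% higher and 8.65% lower. Of the groups plotted, which leave out the study's putative targets and the marker lists, hypoxia and glycolysis genes have the longest bar to the left.

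The study lists 34 putative targets of miR-629-3p that it chose partly on these arrays, so their direction is not independent evidence. Of these 34, 27 were tested, 20 fell, 10 of them by at least 2-fold, and none rose. LBH, a transcription cofactor, had -2.04 and -1.66 against -0.30 and -0.33 and fell by 1.53. STMN1, which destabilises microtubules, had 5.55 and 5.49 against 6.65 and 6.75, with 6.50 to 6.91 for the other mimics, and fell by 1.18 (SE 0.07, adjusted p = 0.000942). RAP2A, a small GTPase, fell by 1.22, and PTP4A1, a phosphatase, by 0.87. FBXO32, a ubiquitin ligase subunit, had 3.18 and 2.93 against 4.09 and 4.23 and fell by 1.101, with 3.38 and 3.39 for miR-210-3p. ZNF710 had -2.13 and -2.19 against -0.90 and -0.36 and fell by 1.53, but the other mimics lay between -2.43 and -2.21, and its difference from them was 0.18 (adjusted p = 0.387). Without any 1 array, 17 to 20 of the list fell.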

How the data were processed

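Total RNA of each sample was measured in 1 colour on Human GE v3 arrays of the Agilent SurePrint G3 series. The authors deposited, for each array, the scanner intensity of every spot as background-subtracted signals from Agilent Feature Extraction 11.5.1.1, without normalization between arrays. They also deposited a table of log2 values, which differed from the values computed here by a constant of at most 0.00755. Its unit is the log2 signal relative to the 75th percentile. Here, the log2 of the processed intensity was averaged over spots without outlier flags for each of 58201 probes, and the 75th percentile over probes was subtracted. The brightest probe of each gene name was fitted on all 8 arrays by limma 3.58.1 under R 4.3.3, with Benjamini-Hochberg adjustment over 17650 genes (4 residual and 2.39 prior degrees of freedom). Of these, 13781 matched RefSeq. On simulated data for miR-629-3p against NC with 17650 genes, 100 genes were given each size of change. The fit recovered 73% of 2-fold and 90% of 4-fold changes, with 9 false calls. The data gave 2465 genes called higher and 1527 lower, so these rates need not hold there.

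Members and gene lists were chosen with earlier results of these data known. Named genes were the 12 largest changes in each direction among protein-coding genes whose arrays did not overlap, the 2 to 4 largest of each list, and genes that the study names, of which a few are not reported here. Other members, and the families of small RNAs and histones, were named after their values were seen. Group counts against the other mimics, planned for single genes only, were added after values were seen. No set test was run. Alternatives covered background correction, normalization, filters, probes, arrays left out and a replicate block. The authors' own comparisons were not used. The number of arrays limits the precision.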

Additional observations from a re-analysis of the deposited data

Results flagged for a closer look

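Genes measured in 1 group alone lay outside the comparison, since a probe had to be well above background on all 4 arrays. There were 1813 genes well above background on both miR-629-3p arrays and on neither NC array, a signal absent from the control arrays at their detection limit, and 73 in the other direction. The dimmest signal that counted as well above background was, on the log2 scale, -3.74 and -3.60 with miR-629-3p against -2.90 and -2.87 in NC, so dimmer probes were measured with miR-629-3p. The part of this limit in the numbers was not tested.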

How the results depend on the processing

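Of the results that count genes, the numbers at any fold moved with single arrays, from 2465 higher and 1527 lower to between 696 and 1326 higher and between 366 and 999 lower, while 235 to 348 genes stayed at least 2-fold higher in number and 129 to 271 lower. In these fits the single array left in a group is taken to vary as the other groups do. Normexp background correction gave 118 and 89 genes at least 2-fold higher and lower in place of 339 and 190, and median centring gave 2461 genes lower at any fold. With detection on both arrays of only 1 group, 644 genes were at least 2-fold higher. With no detection filter 7578 genes were lower at any fold, 792 at least 2-fold higher and 437 at least 2-fold lower. The methods' t-test called 0 genes in each of the 4 counts after Benjamini-Hochberg adjustment, and 320 higher and 168 lower at the study's threshold, an unadjusted p under 0.05 with at least 2-fold, where limma called 357 and 214. With a replicate block the 4 counts were 1843, 1100, 320 and 183. The replicate differences of miR-629-3p and NC had a correlation across genes of -0.10. With a single difference per group, this cannot decide whether same-numbered samples were paired. With a 6-base site, 2.11% of the genes at least 2-fold lower held a match, compared with 2.97% of all genes, and with every probe counted 0.95% of the probes at least 2-fold lower held the 7-base site, compared with 0.55% of all. None of the genes named by the rule changed direction under these alternatives, but many of the alternatives could not have changed it. The miR-629-3p arrays of these genes lay beyond both NC arrays, so leaving out 1 array could not reverse them. Alternatives of the test alone used the same values, and with every probe counted only the brightest probe of each gene was followed. Other probes of CASP10 and ATXN1 had the opposite sign. The other genes named with a list were not rerun 1 by 1. The 4 arrays with 2 in a group leave small changes uncertain.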
